A study of Mus musculus with 4 samples.

Results

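The genes described here are the phase II conjugation enzymes of the mouse small intestine: UDP-glucuronosyltransferases of the Ugt1a, Ugt2a and Ugt2b series, glutathione S-transferases (GST) of the alpha, mu, pi, theta, kappa, omega and zeta classes and of the microsomal class, and sulfotransferases. They were chosen by the first letters of their gene symbols, with earlier results of these data known, and 55 of 27425 listed genes qualified, 52 of them in both deposited tables. The families held 9 UGT1A, 9 UGT2, 5 GSTA, 8 GSTM, 3 GSTP, 8 other GST, 3 MGST and 10 SULT genes. RNA-seq was done on small-intestinal crypts of male C57BL/6J mice aged 9 weeks, in 4 groups that all went through the same crypt isolation with EDTA and trypsin. The fed group and the group fasted for 24 hours received no tetracycline, and a second fed and a second 24-hour fasted group received tetracycline for 21 days. The series text gives the aim as learning what loss of what it abbreviates AKK, brought about with tetracycline, does in fed and in fasted animals.

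Phase II enzymes attach a large polar group to a drug, a dietary compound or an endogenous metabolite, which makes it more soluble and easier to export. UDP-glucuronosyltransferases transfer glucuronic acid, sulfotransferases transfer sulfate, and glutathione S-transferases join electrophiles to glutathione and in part reduce lipid peroxides. The intestinal epithelium is a site of first-pass conjugation of what is swallowed, and the transcription factors NRF2, AHR and PXR are known regulators of many of these genes.

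Each deposited table compares fasted with fed mice, 1 without and 1 with tetracycline, and a positive log2 change is read as higher in the fasted mice from the order of the names. The labels list 1 sample a group, but the means of each table resolve into whole counts of 4 libraries, 2 fasted and 2 fed. These libraries cannot be tied to labelled animals or pools, so each is shown by its own value, a normalized count (reads divided by the library's size factor), and the authors' p-values measure only the spread between such libraries, which may be technical. Libraries are numbered so that library 1 has the larger size factor of its pair. Size factors were 0.930 to 1.09 without tetracycline and 0.727 to 1.27 with it. The tables were scaled separately. Checked against the labelled tissue, stem cell markers (5 genes) summed to 23269 to 101869 normalized counts and 3 enterocyte markers (Alpi, Sis and Vil1) to 134163 to 546104 over the 8 libraries. Gene positions below are from GENCODE M21 on GRCm38. The submitters' processing notes name mm10, the same assembly, although 96.2% to 96.3% of matched gene identifiers in the files carry a version number 1 above that release.

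Several members are near-copies, so reads can be split between them. Gsta1, Gsta2 and Gsta5 (listed as Gm10639 in GENCODE M21) differ at 10 to 17 of 666 coding bases, and Gstp1 and Gstp2 at 12 of 630. The 60-base coding windows with the most differences are printed because they show how few bases tell these transcripts apart. Capitals mark the positions at which the listed genes differ. In the alpha group the window covers coding bases 469 to 528 and holds 6 such positions.
Gsta1: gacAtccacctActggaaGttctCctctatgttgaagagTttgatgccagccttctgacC
Gsta2: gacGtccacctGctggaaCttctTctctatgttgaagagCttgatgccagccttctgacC
Gsta5: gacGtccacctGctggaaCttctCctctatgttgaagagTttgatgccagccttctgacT
In the pi pair the window covers coding bases 1 to 60 and also holds 6 such positions.
Gstp1: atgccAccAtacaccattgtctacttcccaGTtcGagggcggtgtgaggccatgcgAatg
Gstp2: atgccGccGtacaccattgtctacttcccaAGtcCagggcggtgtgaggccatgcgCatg
Of all 31-base runs in its transcripts, Gsta1 shared 65.6% with other members and 80.3% with Gm3776, a gene outside the listed symbols. Values for Gsta1, Gsta2, Gsta5, Gstp1 and Gstp2 are therefore uncertain as to the gene. Gsta3, Gsta4, Gstm4, Gstm5 and Mgst1 shared less than 3% of their runs with other members.

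Without tetracycline, the members called lower after fasting were all cytosolic glutathione S-transferases, namely 4 of 5 alpha, 5 of 7 tested mu and 1 of 3 pi genes. In the authors' deposited table, 10 of the 47 members with an adjusted p passed an adjusted p of 0.05 in the direction of lower levels after fasting, against 1.22% of all 18100 tested genes. The 10 were Gsta1, Gsta2, Gsta3, Gsta4, Gstm1, Gstm2, Gstm3, Gstm4, Gstm6 and Gstp2. Another 3 were higher, namely Mgst1, Sult1a1 and Ugt1a8, against 1.06% of all tested genes. The median log2 change was -1.57 over the 5 GSTA genes and -1.28 over the 7 GSTM genes with a mean of at least 10, and -0.002 over the 16863 genes with such a mean. The families outside the alpha, mu and pi classes had medians of -0.26 to 0.05.

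**Figure D1:**
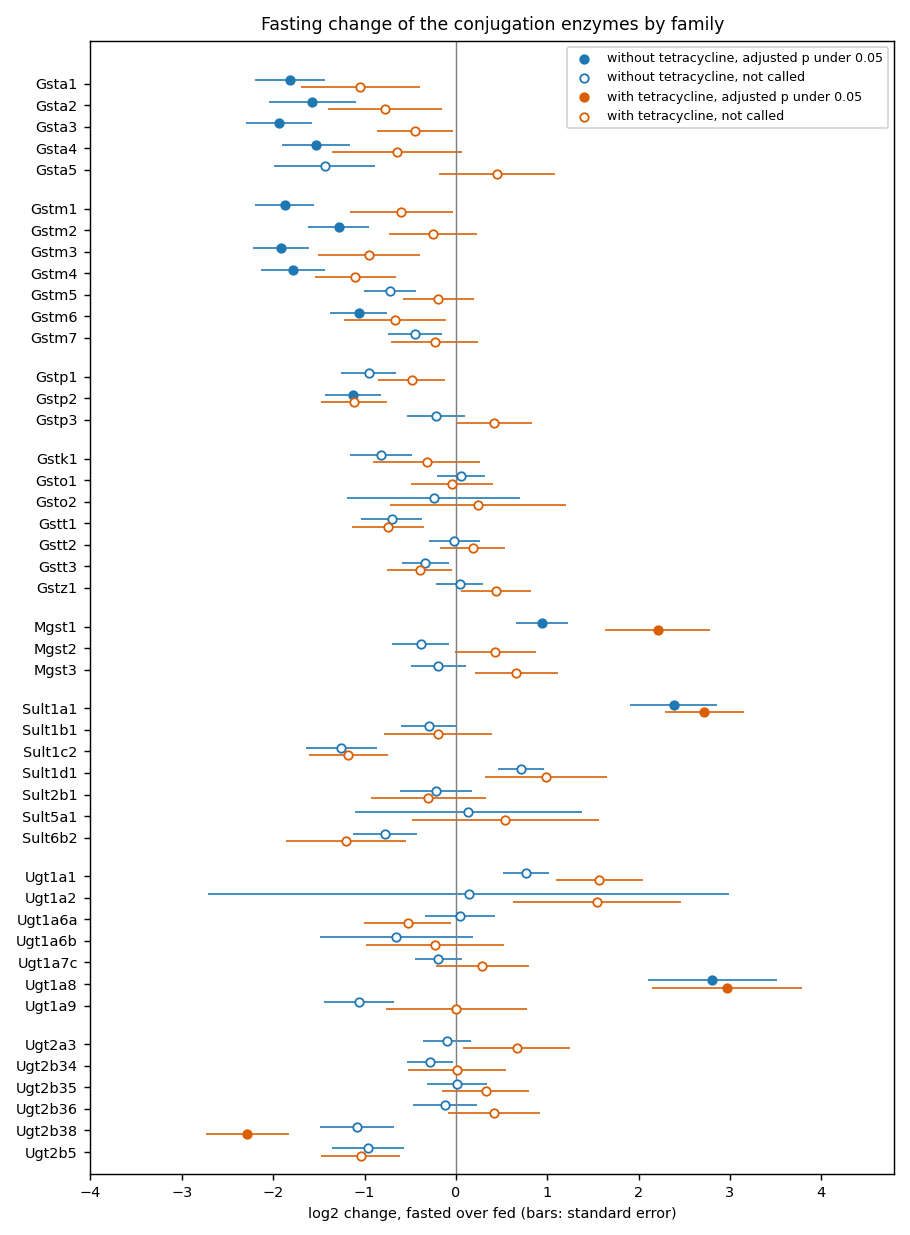
Fasting change of each member with a mean of at least 10 in both tables, as log2 of fasted over fed with its standard error, blue without and orange with tetracycline, filled where the authors' adjusted p was under 0.05. The alpha and mu genes sit at -1.93 to -0.45 without tetracycline and mostly nearer 0 with it, while Mgst1, Sult1a1 and Ugt1a8 sit above 0 in both.

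Among the alpha-class enzymes, Gsta1, which also reduces lipid hydroperoxides, was the most abundant. It stood at 30724 and 62699 normalized counts in the fed libraries and at 9877 and 16677 in the fasted ones. Gsta4, which conjugates the lipid peroxidation product 4-hydroxynonenal, was at 9609 and 20870 in the fed and at 4411 and 6136 in the fasted libraries. For both genes the fasted libraries lay below both fed libraries, and fed library 2 was at 2.04 and 2.17 times the level of fed library 1. With 2 libraries a side such separation is common: of 500 sampled genes with a mean of 60 to 1000, both fasted libraries lay below both fed ones in 24.2% and above them in 22.2% without tetracycline, and in 18.8% and 17.8% with it. Gsta3 stands apart from the cluster on chr1:21240589-21265661, away from the other alpha genes at chr9:78182774-78355788. It was at 729 and 1402 in the fed libraries and at 281 and 277 in the fasted ones, which nearly coincided. In the authors' deposited table the log2 changes were -1.82 ± 0.38 (SE) for Gsta1, -1.53 ± 0.37 for Gsta4 and -1.93 ± 0.36 for Gsta3. These are 3.52-, 2.89- and 3.82-fold lower levels in fasted mice, with DESeq2 adjusted p of 2.8e-04, 0.0037 and 2.4e-05 by the authors' deposited table. Gsta2 fell less clearly, by 1.57 ± 0.48 with an adjusted p of 0.046 by the authors' deposited table. Gsta5, the least abundant, had -1.44 ± 0.55 (adjusted p = 0.20 by the authors' deposited table) and did not pass.

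The mu-class genes form 1 cluster at chr3:107895821-108044894, in the order Gstm5, Gstm7, Gstm6, Gstm3, Gstm2, Gstm1, Gstm4, with Gstm5 alone on the plus strand. Gstm3, the member with the most counts, was at 51321 and 77645 normalized counts in the fed libraries and at 14524 and 19676 in the fasted ones. Gstm1 was at 24259 and 44257 fed and at 9052 and 9654 fasted. Gstm4 was at 2587 and 5097 fed and at 1059 and 1173 fasted. All of these fasted values lay below both fed values, with a gap of 2.21-fold between the nearest libraries for Gstm4, 2.51-fold for Gstm1 and 2.61-fold for Gstm3. The authors' deposited table gives log2 changes of -1.92 ± 0.31 (SE) for Gstm3, -1.87 ± 0.32 for Gstm1 and -1.78 ± 0.35 for Gstm4, with DESeq2 adjusted p of 1.8e-07, 2.3e-06 and 5.6e-05. Gstm2 between them fell by 1.28 ± 0.33 and Gstm6 by 1.07 ± 0.31, with adjusted p of 0.0087 and 0.036 by the authors' deposited table. At the other end of the cluster, Gstm5 had -0.72 ± 0.28 and Gstm7 -0.45 ± 0.30 in the authors' deposited table, and neither passed (adjusted p of 0.22 and 0.67). Whether the change differs between neighbours was not tested. Gstm3 and Gstm1 share 24.8% and 27.0% of their 31-base runs with other members, and Gstm4 only 3.0%. With genes outside the listed symbols, Gstm3 shares 24.7% (Gm8834), Gstm1 10.4% and Gstm4 0.35%. Values for Gstm3 and Gstm1 are therefore also in part uncertain as to the gene.

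**Figure D2:**
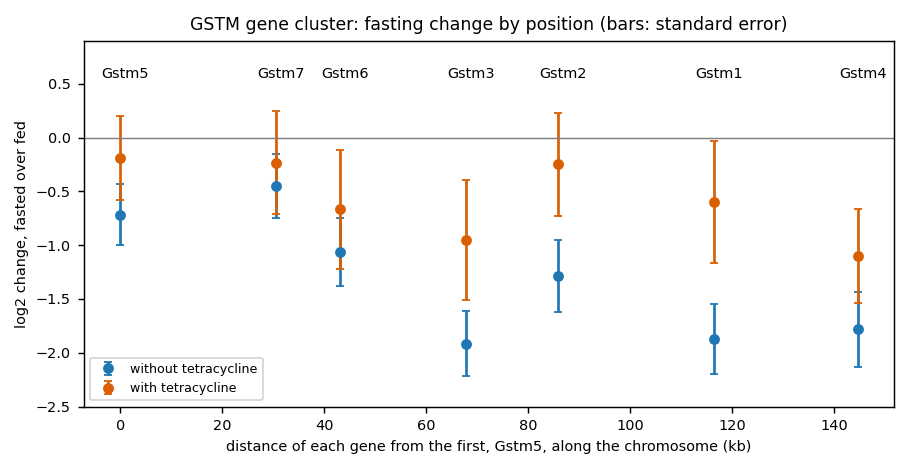
Fasting change of the 7 GSTM genes of the cluster (log2, fasted over fed, with standard error) against the distance of each gene from Gstm5 along the chromosome in kb. Without tetracycline Gstm3, Gstm1 and Gstm4 lie at -1.92 to -1.78 and Gstm5 and Gstm7 at -0.72 and -0.45, and with tetracycline all 7 lie between -1.10 and -0.19.

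Of the pi class, Gstp2 was at 4927 and 8312 normalized counts in the fed and at 3043 and 3019 in the fasted libraries. It fell by 1.13 ± 0.31 (SE) on the log2 scale, with a DESeq2 adjusted p of 0.017 by the authors' deposited table. Its more abundant near-copy Gstp1 was at 20594 and 32970 fed and at 12816 and 14799 fasted, and just missed the threshold at -0.96 ± 0.30 and an adjusted p of 0.061 by the authors' deposited table. Both genes had fasted libraries below both fed libraries. Gstp3 overlapped between the groups, with 383 and 475 fasted and 429 and 570 fed.

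The size of these falls leaned on 1 library. In the table without tetracycline, fed library 2 held 228564 normalized counts of alpha and mu genes together, fed library 1 held 129172, and the fasted libraries held 45529 and 60360. Leaving fed library 2 out gave log2 changes of the rebuilt means (pseudocount 1) of -0.87 for Gsta4, -0.82 for Gsta2, -0.77 for Gstm2, -0.64 for Gstm6 and -0.70 for Gstp2. The largest falls stayed larger without it, at -1.59 for Gstm3, -1.38 for Gsta3, -1.37 for Gstm1, -1.21 for Gsta1 and -1.21 for Gstm4. The same library was also highest in stromal markers, whose 4 genes summed to 1578 there, 417 in fed library 1 and 109 and 298 in the fasted libraries, and 3 of the 4 were called lower after fasting in the authors' deposited table. Markers of the distal small intestine (Fabp6, Slc10a2 and Nr1h4) summed to 20287 and 22279 in the fed and to 6558 and 4837 in the fasted libraries, a difference carried by Fabp6, which was at 13402 and 18584 fed and at 583 and 330 fasted. Slc10a2 overlapped between the groups, and Nr1h4 was higher in the fasted libraries, at 3774 and 3993 against 2429 and 2863. Proximal markers (4 genes) summed to 20458 and 24021 in the fed and to 19381 and 19432 in the fasted libraries. Only Slc40a1 of them was called, and lower, in the authors' deposited table. Of the colon markers, Aqp8 was called lower there, at 618 and 1612 fed and 57.8 and 108 fasted, and Saa1 higher. The Paneth cell markers Defa17 and Mmp7 summed to 26473 and 18593 in the fed and to 41765 and 57797 in the fasted libraries, and 3 of the 5 Paneth genes were called higher in the authors' deposited table. Lymphocyte markers (5 genes) summed to 9163 and 11773 fed and to 3825 and 7182 fasted, with 2 of 6 called lower in the authors' deposited table. Myeloid markers (4 genes) summed to 1783 and 2939 fed and to 930 and 1238 fasted, with 1 called lower in the authors' deposited table (Lyz2), and proliferation markers (6 genes) to 47364 and 30226 fed and to 22606 and 28615 fasted, with none called. Of 10 enterocyte genes, Fabp1 alone was called, and higher, in the authors' deposited table, and the list had a median log2 change of 0.59. Alpi, Sis and Vil1 summed to 250440 and 356307 in the fed and to 490058 and 229106 in the fasted libraries. Fasted library 1 was highest in these 3 markers and lowest in the alpha and mu sum. Stem cell markers (5 genes) summed to 101457 and 65350 fed and to 55908 and 72251 fasted, with none called. Fed library 2 was also highest in pancreatic acinar markers (6 genes), at 1426 against 482 to 647. The part of these markers in the result was not tested. In these bulk samples, fewer cells of a type and less RNA per cell cannot be told apart.

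No gene of the remaining soluble GST classes passed. Gsto1, an omega-class enzyme with thiol transferase activity, had the most counts of this group and was at 31021 and 39066 normalized counts fed and at 38927 and 33660 fasted, with overlapping groups. The authors' deposited table gives it a log2 change of 0.05 ± 0.26 (SE). Gstz1, which isomerizes maleylacetoacetate in tyrosine breakdown, was likewise overlapping at 3255 and 3647 fed and 3260 and 3850 fasted. Gstk1, a kappa-class enzyme of mitochondria and peroxisomes, had -0.82 ± 0.34 and Gstt1, of the theta class, had -0.70 ± 0.33 in the authors' deposited table, with adjusted p of 0.26 and 0.38. None of the 7 tested genes of this group passed in either of the authors' deposited tables, where 2.27% and 0.600% of all genes were called in either direction.

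With tetracycline, 3 of the 46 tested members were called higher and 1 lower after fasting in the authors' deposited table, against 0.333% and 0.267% of all 17993 tested genes. The 3 were again Mgst1, Sult1a1 and Ugt1a8, and the 1 was Ugt2b38. None of the 12 tested alpha and mu genes was called in the authors' deposited table. At an unadjusted p under 0.05 the count was 1, for Gstm4 (p = 0.012, log2 change -1.10 ± 0.44) in the authors' deposited table, where 5.34% of all tested genes were under that value. Their median log2 change was -0.62, against -1.55 without tetracycline and -0.02 over all genes with a mean of at least 10 in the table with tetracycline. The error was also wider, since the median standard error of these 12 genes was 0.56 with and 0.34 without tetracycline. Fasted library 1 held 37381 normalized counts of alpha and mu genes, fasted library 2 held 119615, and the fed libraries held 143757 and 136068.

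Gsta1 was at 9384 in fasted library 1 and at 38751 in fasted library 2, with 48888 and 50400 in the fed libraries. Gsta4 was at 3276 and 17560 in the fasted libraries, the second of which lay above both fed values of 17413 and 15228. Gstm1 was at 6485 and 18501 fasted and at 20838 and 16942 fed. In each of the 3 genes, fasted library 1 was low and fasted library 2 was at or near the fed level. Gsta3 did not follow this split, with 552 and 699 fasted and 720 and 989 fed. Gstm4 was at 966 and 1662 fasted and at 2748 and 2880 fed, so its groups stayed apart. Gstp2 was at 2672 and 3012 fasted and at 6497 and 5826 fed, and its log2 change of -1.12 ± 0.36 (SE) had an adjusted p of 0.19 by the authors' deposited table and so was not called. It differed from that without tetracycline by 0.01 ± 0.48.

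**Figure D3:**
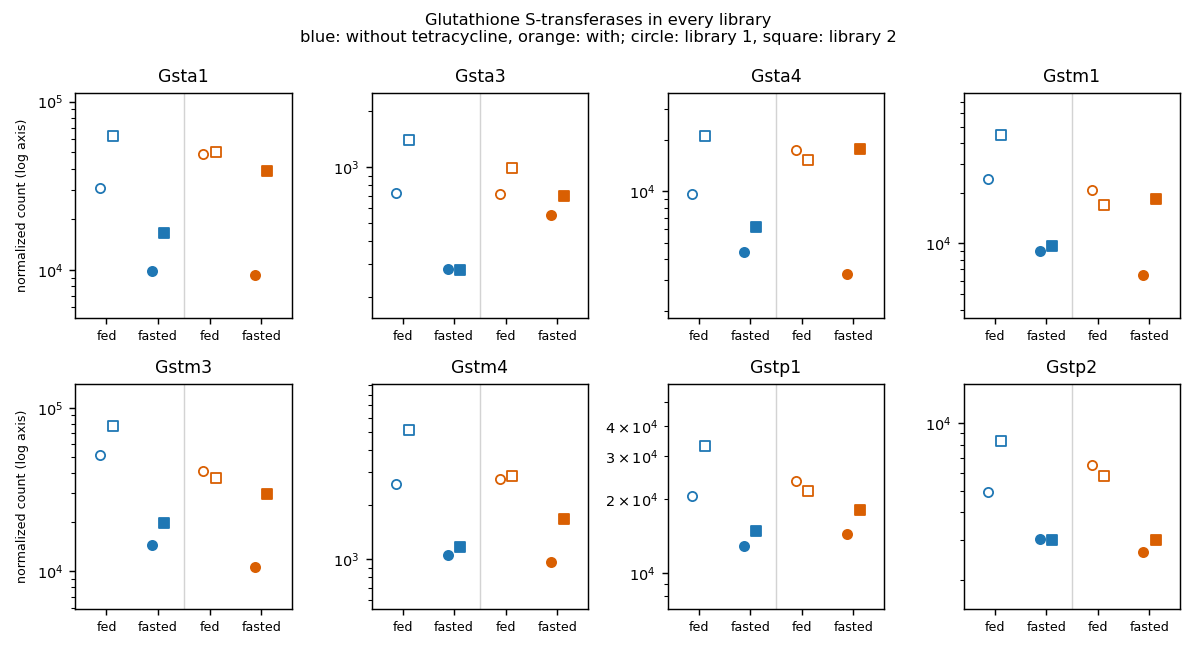
Normalized counts (log axis) of 8 alpha, mu and pi genes in each library, fed open and fasted filled, blue without and orange with tetracycline, circles library 1 and squares library 2. Without tetracycline both fasted libraries lie below both fed ones in each of these genes, which were picked for display, against 24.2% of the sampled genes. The sampled genes had a mean of 60 to 1000, which most of the genes shown exceed. With it, fasted library 1 is low and fasted library 2 close to the fed level for Gsta1, Gsta4 and Gstm1.

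The same 2 fasted libraries differed in their cell type markers. The 3 enterocyte markers summed to 134163 normalized counts in fasted library 1 and to 546104 in fasted library 2, against 319224 and 314956 in the fed libraries. These are the 3 of 10 enterocyte genes that could be resolved in every library of both tables. Fabp1 of the same list was high in both fasted libraries, at 145141 and 202514 against 86918 and 89256 fed. Lct, also of that list, followed the split, at 10035 and 69982 fasted against 41582 and 43546 fed. The stem cell markers summed to 90564 in fasted library 1 and 23269 in fasted library 2, and to 49136 and 101869 in the fed libraries. Lymphocyte markers (5 genes) summed to 12001 and 1972 in the fasted libraries and to 37910 and 9638 in the fed ones. The Paneth cell markers Defa17 and Mmp7 summed to 77605 and 16632 in the fasted and to 19548 and 30922 in the fed libraries. Gastric markers (4 genes) summed to 2.47 and 133 in the fasted and to 2107 and 8585 in the fed libraries. Distal small intestine markers (3 genes) summed to 3715 and 10463 in the fasted and to 17315 and 12221 in the fed libraries, with none called. Proximal Slc40a1, colon Aqp8 and gastric Muc5ac were called lower in the authors' deposited table. The part of these shifts in the values of the conjugation enzymes was not tested. Leaving out fasted library 1 turned Gsta4 from -0.65 to 0.11 and moved Gstm1 from -0.60 to -0.03, whereas leaving out fasted library 2 gave -2.32 for Gsta4 and -1.54 for Gstm1.

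**Figure D4:**
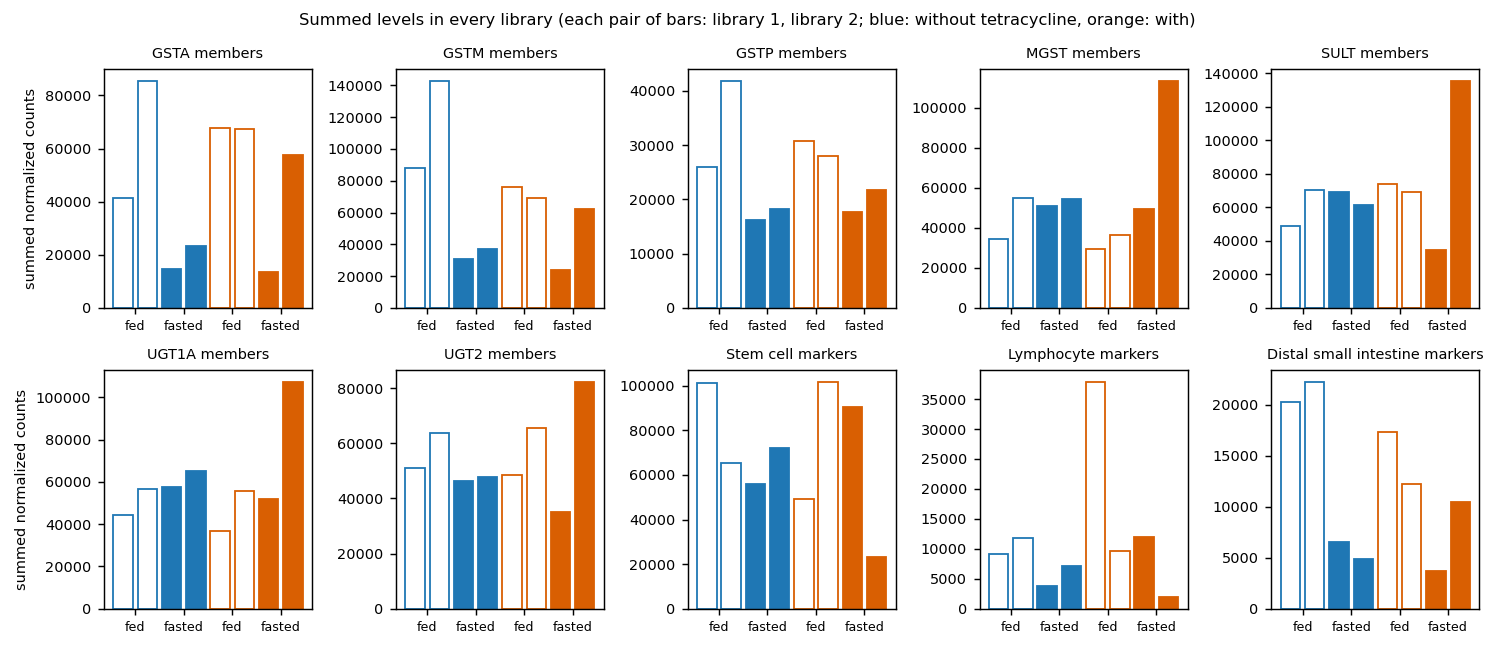
Summed normalized counts of 7 enzyme families and 3 marker lists in each library, fed open and fasted filled, blue without and orange with tetracycline, each pair of bars being library 1 and library 2. The GSTA and GSTM sums are lower in both fasted than in both fed libraries without tetracycline, and with it the second fasted library is above the first in all 7 families and below it for stem cell and lymphocyte markers.

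Whether tetracycline altered the fasting change was tested gene by gene, as the difference of the log2 changes over its standard error (Wald test, normal p, Benjamini-Hochberg over 17571 genes). It was called for 0 of the 46 tested members, against 0.0228% of all genes, and dividing the statistic by its robust SD of 0.71 also called 0 members, against 0.182%. At an unadjusted p under 0.05 there were 5 members, against 1.05% of all genes. Gsta3 had the smallest p, with a difference of 1.48 ± 0.55 (SE), followed by Gsta5 with 1.89 ± 0.84, Mgst1 with 1.27 ± 0.64, Gstm1 with 1.28 ± 0.65 and Ugt2b38 with -1.20 ± 0.61. The fasting change was less negative or more positive with tetracycline in all 12 alpha and mu genes, whose median difference was 0.84, and in 38 of the 46 members, whose median was 0.48 against 0.00 over all genes. That direction rested on single libraries. From the library means (pseudocount 1), leaving out fasted library 2 with tetracycline left 7 of the 12 alpha and mu genes above 0, with a median difference of 0.14, and 20 of the 45 members with a mean of at least 10 in both tables. Leaving out fed library 2 without tetracycline left 10 of the 12, with a median of 0.36, and 27 of the 45. These differences share the libraries of each table and so are not independent of one another. A different response to fasting with tetracycline was therefore not established for any single enzyme, and a 95% interval for Gstm3 ran from -0.28 to 2.20.

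The membrane-bound enzyme Mgst1, a glutathione transferase and peroxidase of the endoplasmic reticulum and outer mitochondrial membrane, rose in both tables. Without tetracycline it was at 25206 and 27760 normalized counts in the fasted and at 11218 and 16352 in the fed libraries. With tetracycline it was at 24591 and 68324 fasted and at 7902 and 12195 fed. Both fasted libraries lay above both fed libraries in each table (22.2% and 17.8% of the sampled genes, which had lower means). It rose by 0.94 ± 0.28 (SE) and 2.21 ± 0.58 on the log2 scale, 1.92- and 4.62-fold, with DESeq2 adjusted p of 0.041 and 0.028 by the authors' deposited tables. Without fasted library 2, the change with tetracycline was 1.29. Mgst2 and Mgst3, related membrane enzymes with glutathione transferase activity, were not called in either of the authors' deposited tables, with log2 changes of -0.39 and -0.19 without and 0.43 and 0.66 with tetracycline.

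Sult1a1, a sulfotransferase of simple phenols, had the second largest rise of all members with a mean of at least 10 in both tables. It was at 76 and 72 normalized counts in the fed and at 211 and 566 in the fasted libraries without tetracycline, and at 113 and 104 fed and 591 and 836 fasted with it. The fed libraries nearly coincided and every fasted library was above them. In the authors' deposited tables it rose by 2.38 ± 0.48 and 2.72 ± 0.44 (SE) on the log2 scale, 5.22- and 6.59-fold, with DESeq2 adjusted p of 1.1e-04 and 6.8e-07. Without fasted library 2 the change without tetracycline was 1.49. Sult1d1, which sulfates catecholamines and had the most counts of the family, was at 34347 and 37259 fasted and 19476 and 24224 fed without tetracycline. With tetracycline it was at 19591 and 85900 fasted and 25721 and 27523 fed, so the fasted libraries fell on either side of the fed ones. It was not called in either of the authors' deposited tables, with log2 changes of 0.71 ± 0.26 and 0.99 ± 0.66.

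Other sulfotransferases had negative changes that did not pass the test. Sult1c2 was at 107 and 190 normalized counts fasted and 316 and 393 fed without tetracycline, and at 264 and 197 fasted and 461 and 582 fed with it. The groups did not overlap in either table, as in 24.2% and 18.8% of the sampled genes in this direction. The log2 changes of -1.25 ± 0.39 and -1.18 ± 0.44 had adjusted p of 0.055 and 0.42 by the authors' deposited tables. Sult6b2 was at 4253 and 4838 fasted and 5037 and 10525 fed without tetracycline, and at 2616 and 11180 fasted and 16572 and 15224 fed with it. It had log2 changes of -0.78 ± 0.35 and -1.20 ± 0.66 in the authors' deposited tables. Without fed library 2 the former was -0.15 and without fed library 1 -1.21, and with tetracycline the latter was -0.51 without fasted library 1 and -2.60 without fasted library 2. Sult1b1 and Sult2b1, a cholesterol sulfotransferase, overlapped between fed and fasted libraries in both tables. Sult1e1 was listed only in the table with tetracycline, at a mean of 0.40, and Sult2a8 had means of 1.27 and 1.23, so neither could be compared at this depth.

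The UGT1A enzymes are read from 1 locus, chr1:88055388-88220002, in which each gene has its own first exon and all 9 share the 4 last coding exons of 735 bases in total (chr1:88215044-88215175, chr1:88215795-88215882, chr1:88216138-88216357 and chr1:88218127-88218421). They shared 53.0% to 84.2% of their 31-base runs with other members, and mainly reads over the first exon tell them apart, although Ugt1a7c also ends further downstream than the other 8. Of the 9, only Ugt1a8 was called, which holds for either one of the authors' deposited tables. It rose from 8.9 and 13.1 normalized counts in the fed to 47.7 and 106 in the fasted libraries without tetracycline, and from 4.7 and 16.2 to 73.2 and 86.7 with it. These are changes of 2.81 ± 0.70 and 2.97 ± 0.82 (SE, log2), with DESeq2 adjusted p of 0.0055 and 0.049 by the authors' deposited tables, at levels far under those of its neighbours. Without fasted library 2 the change without tetracycline was 2.02. With tetracycline the change was 2.24 without fed library 1 and 3.82 without fed library 2. Ugt1a1, the bilirubin-conjugating enzyme and the one with the most counts, was at 34877 and 39175 fasted and 19820 and 23756 fed without tetracycline. With tetracycline it was at 31401 and 58921 fasted and 12478 and 17930 fed. Its groups stayed apart in both tables, as in 22.2% and 17.8% of the sampled genes, which had lower means. The log2 changes of 0.77 ± 0.26 and 1.57 ± 0.48 missed the threshold, with adjusted p of 0.089 and 0.12 by the authors' deposited tables.

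Ugt1a7c, nearly as abundant, was at 19758 and 20470 normalized counts fasted and at 20361 and 25687 fed without tetracycline, so its groups overlapped. Ugt1a9 was at 1303 and 1707 fasted and 1904 and 4372 fed, with a log2 change of -1.06 ± 0.38 in the authors' deposited table (adjusted p = 0.14). With tetracycline Ugt1a9 ranged from 1526 to 8789 in the fasted libraries alone. Ugt1a6a, a phenol-conjugating form, had 0.05 ± 0.38 and -0.53 ± 0.47 in the authors' deposited tables. Ugt1a2 was at 0 in 1 fed library without tetracycline and at 31.2 to 73.3 in the other 3, so its rank rests on few reads.

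Of the UGT2 enzymes, which conjugate steroids, bile acids and many drugs, only Ugt2b38 was called. It was at 242 and 255 normalized counts in the fasted and at 895 and 1523 in the fed libraries with tetracycline. Without tetracycline it was at 339 in both fasted libraries and at 425 and 1010 in the fed ones. It fell by 2.28 ± 0.45 (SE, log2, 4.87-fold) with tetracycline, with a DESeq2 adjusted p of 2.6e-04, and had -1.08 ± 0.41 without it (adjusted p = 0.18) in the authors' deposited tables. The value without tetracycline moved to -0.32 without fed library 2 and to -1.57 without fed library 1. Its neighbour in sequence Ugt2b5 shares 44.9% of its 31-base runs with Ugt2b38 and 26.4% with Ugt2b37, a gene that was not analysed here. Ugt2b5 had -0.96 ± 0.39 and -1.04 ± 0.43 and was not called in the authors' deposited tables. Its nearest fasted and fed libraries without tetracycline nearly coincided, at 3745 and 3748 normalized counts, and reads could be split between the pair. Ugt2b34, with the most counts of the family, was at 32797 and 29191 fasted and 34734 and 40534 fed without tetracycline. With tetracycline it was at 21748 and 53603 fasted and 32557 and 42150 fed, around a log2 change of 0.01 ± 0.53 in the authors' deposited table.

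**Figure D5:**
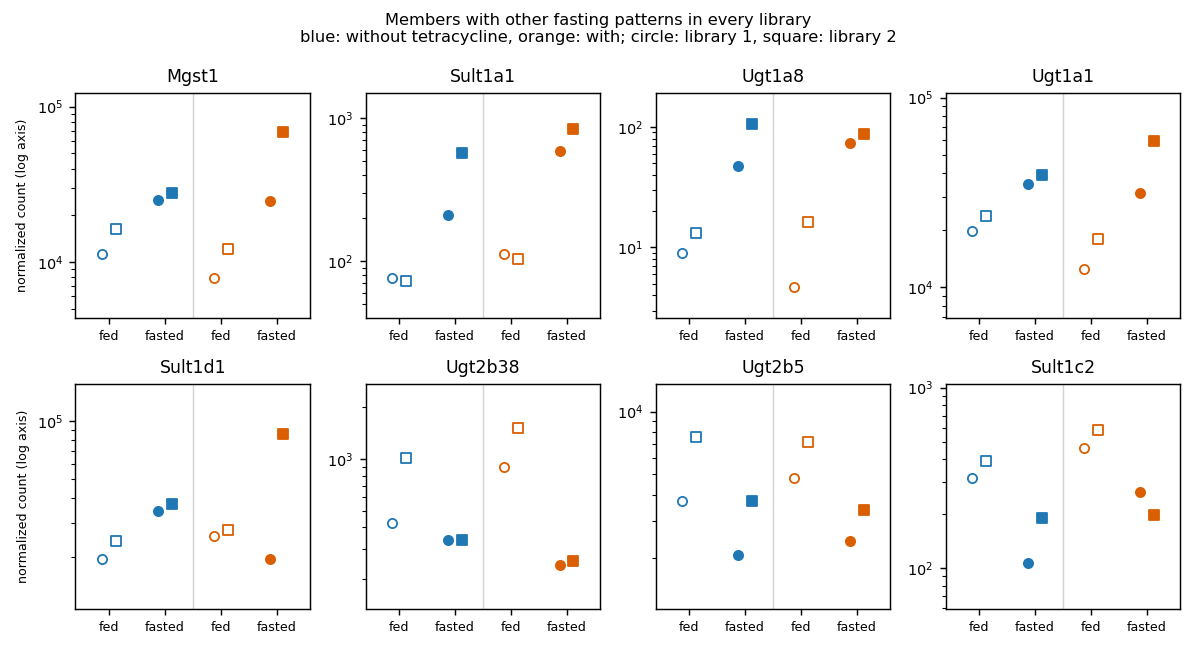
Normalized counts (log axis) of 8 further members in each library, fed open and fasted filled, blue without and orange with tetracycline, circles library 1 and squares library 2. Fasted libraries lie above fed ones for Mgst1, Sult1a1, Ugt1a8 and Ugt1a1 and below them for Ugt2b38, Ugt2b5 and Sult1c2 in both tables, with nearly coinciding values for Ugt2b5 without tetracycline, and Sult1d1 with tetracycline has 1 fasted library at 19591 and the other at 85900. These 8 genes were picked for display. Of the sampled genes with a mean of 60 to 1000, 22.2% lay above and 24.2% below without tetracycline, and 17.8% and 18.8% with it.

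Per kilobase of merged exons, which allows levels to be compared between genes, Gstm3 and Gsta1 led in fed mice without tetracycline, at 49186 and 48862 normalized counts per kb (authors' group means rebuilt from mean and fold change). Gstm1 followed at 23257, Mgst3 at 20904, Gsto1 at 17322 and Gstp1 at 17301. In fasted mice of the same table the order was changed: Mgst3 was at 18311, Gsto1 at 17941, Ugt1a1 at 16648, Sult1d1 at 14560, Gsta1 at 13888, Mgst1 at 13156 and Gstm3 at 13044. No error was computed for differences in level between genes, so these orders only describe group means. None is drawn among Mgst3, Gsto1 and Ugt1a1. The lowest members, Ugt1a10, Ugt1a5, Ugt2a1, Ugt2a2, Ugt2b1, Gstt4, Gstm2-ps1, Sult1e1 and Sult2a8, all had means under 10 in both tables or were listed in 1 table only.

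Levels with tetracycline were set against those without it for fed and fasted mice separately, after centring on the median of 21925 genes, and without a test because the tables were scaled separately. In fed mice the 45 members with a mean of at least 10 in both tables had a median log2 ratio of -0.14, with 17 higher and 28 lower. The ratios were lowest for Gstm1 at -0.92 and Gstm3 at -0.78, and highest for Sult6b2 at 0.97. Without fed library 2 of the table without tetracycline, and with the same centring, Gstm1 was at -0.42, Gstm3 at -0.45 and Sult6b2 at 1.60, and the members turned to 33 higher and 12 lower, with a median of 0.20. In fasted mice the median was 0.33, with 37 higher and 8 lower. All 12 alpha and mu genes were higher there, by a median of 0.51, led by Gsta5 at 1.88, Gsta2 at 1.21 and Gsta3 at 1.10. Leaving out fasted library 2 with tetracycline, which was high in enterocyte markers, turned the direction: 12 members were then higher and 33 lower with a median of -0.21, and 5 of the 12 alpha and mu genes were higher with a median of -0.25. Gsta5 was then at 0.94, Gsta3 at 0.92 and Gsta2 at 0.15.

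The genes that supply or finish conjugation were counted against 2.27% of all genes called without and 0.600% with tetracycline, so that counts of 0 in lists of this size are near the background. Among those that supply cofactors, such as the makers of UDP-glucuronic acid, sulfate donor and glutathione, 0 of 16 tested genes passed without and 0 of 15 with tetracycline in the authors' deposited tables. For efflux transporters the count was 0 of 12 in both, for deconjugation and mercapturate steps 0 of 9 in both, and for regulators, including Nfe2l2, Ahr and Nr1i2, 0 of 19 in both of the authors' deposited tables. In a list of further conjugation and redox enzymes, 2 of 17 passed without tetracycline. Nqo1, a quinone reductase and known NRF2 target, was at 1601 and 1728 normalized counts fasted and 3230 and 4312 fed, and fell by 1.18 ± 0.27 (SE, log2), with a DESeq2 adjusted p of 0.0019 by the authors' deposited table. Akr1b8, an aldo-keto reductase, was at 1066 and 1643 fasted and 479 and 689 fed, and rose by 1.21 ± 0.33 there, with an adjusted p of 0.017 by the authors' deposited table. With tetracycline Akr1b8 rose again, by 1.50 ± 0.41 (adjusted p = 0.046), and Nqo1 had -0.58 ± 0.36 in the authors' deposited table.

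Promoter sequences were read because several alpha and mu genes fell in the same comparison. RefSeq promoters (250 bases before to 50 after the start site, GRCm38.p6) matched 49 of the 55 members with 61 entries. The core of the antioxidant response element bound by NRF2 (TGACNNNGC, both strands) was found in 4 of 32 GST promoters, or 12.5%, against 12.4% of all 32851 promoters, in Gsta3, Gstm5, Gstm7 and Mgst1. Of these, Gsta3 fell without tetracycline and Mgst1 rose. The AP-1 site (TGANTCA) was in 4 of 32 GST and 5 of 17 UGT promoters against 7.81% of all, and may overlap the antioxidant core. The xenobiotic response element core (TNGCGTG) was in 1 of 32 and 1 of 17 against 5.07%, the CDX site (TTTATG) in 3 of 32 and 1 of 17 against 11.9%, and the HNF4 core (CAAAGTCCA) in none of either against 0.475%. Of 12 SULT promoters, 3 held the AP-1 site, 1 the xenobiotic core, 1 the CDX site, 1 the HNF4 core (Sult1b1) and 0 the antioxidant core. The glucocorticoid and PPAR response elements, each as an inverted or direct repeat of its half-site, were in none of the 3 families, against 0.475% and 0.0396% of all promoters. A match is a description of letters in this window and not a site. The 100-base windows below show the motif in capitals for an alpha gene that fell and for the membrane gene that rose. They lie at chr1:21240418-21240517 for Gsta3 and chr6:138140425-138140524 for Mgst1, both printed from the plus strand. In Mgst1 the capitals are the reverse complement of the motif, which there lies on the minus strand, and the window falls inside the GENCODE M21 gene, whose start at 138140316 lies upstream of the RefSeq start site used here.
Gsta3: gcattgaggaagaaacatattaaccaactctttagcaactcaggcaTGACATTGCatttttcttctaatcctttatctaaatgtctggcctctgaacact
Mgst1: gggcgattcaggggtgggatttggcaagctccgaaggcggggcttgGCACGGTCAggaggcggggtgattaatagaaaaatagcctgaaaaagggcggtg
The antioxidant core starts 121 bases before the start site in Gsta3 and 56 in Mgst1.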

How the data were processed

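Per the submitters' processing notes, the authors used Salmon and DESeq2 and the build mm10; versions are not given in the sources used here. Per the labels' protocols, libraries came from a kit that does not mark strand, so reads of overlapping antisense genes cannot be told apart. The authors deposited 2 tables (25522 and 26085 genes) whose mean normalized counts are a signal, whose fold changes and standard errors are log2 values, whose Wald statistics are a score and whose p-values are raw and adjusted, per the file headers. The members and all lists were chosen with earlier results of these data known. Members were called at the authors' adjusted p under 0.05.

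From the means, log2 changes and standard errors, whole counts of 4 libraries a table were solved: the lowest means gave 1 read's worth in each library, and counts were accepted where exactly 1 set gave back the deposited mean, log2 change and dispersion, or, for members with a mean of at most 60 (Ugt1a8 among them), the mean alone. Of 500 random genes a table with a mean of 60 to 1000, 100% had exactly 1 set that met all 3, and 379 without and 500 with tetracycline had 1 set from the mean alone. Counts that the authors' DESeq2 run took from Salmon are estimates rounded to whole numbers. The deposited tables name no libraries, so no test was run on them. The number of unused per-sample columns was 0. Differences between the tables were tested with a Wald test and Benjamini-Hochberg adjustment; in simulated tables it called 78% of 100 genes with a true difference of 4 and 40% of 100 with 2 on the log2 scale (17571 genes). Named genes were all called members, the member with the most counts in each family, and the 3 largest rises and falls of each table. Alternatives were a stricter threshold, adjustment over every row, other minimum means and pseudocounts, centring, exclusion of UGT1A and pseudogenes, and leaving out each library. Python 3.11.15, numpy 2.4.6, pandas 2.3.3, scipy 1.17.1 and matplotlib 3.10.9 were used.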

Additional observations from a re-analysis of the deposited data

How the results depend on the processing

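Called counts kept within 1.5 times of those reported under the alternatives run, except that a threshold of 0.01 left 1 of 3 higher members with tetracycline. Adjustment over every row lost Gsta2, Gstm6 and Mgst1 without and Ugt1a8 with tetracycline (adjusted p of 0.066, 0.050, 0.057 and 0.071). Counting log2 changes of at least 1 at a mean of at least 1 gave 4 higher and 17 lower members without and 5 higher and 11 lower with tetracycline. A minimum mean of 5 or a pseudocount of 5 left 2 higher without tetracycline. A change of at least 2 left 2 lower without, and 3 higher and 3 lower with tetracycline. Without UGT1A and pseudogenes 2 higher remained with tetracycline. Leaving out each library gave 3 to 6 higher and 8 to 21 lower without, and 4 to 9 higher and 7 to 20 lower with tetracycline. The median log2 change over members then ran from -0.73 to -0.16 without and from -0.66 to 0.18 with tetracycline, where 1 fasted library decides the sign. Chosen after seeing the data, leaving out each library of either table moved the median difference between the tables from 0.47 to between -0.10 and 0.79, and the median tetracycline ratio from -0.14 to between -0.39 and 0.20 in fed and from 0.33 to between -0.21 and 0.73 in fasted mice. No paired analysis was possible because the labels give 1 sample a group and the recovered libraries carry no numbers of their own. With 2 libraries a side, true differences could be missed, as in the simulated tables, where part of the genes with a true difference went uncalled.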
